A study of Mus musculus with 11 samples.

Results

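The genes described here across the study encode 7 proteins of the adherens junction: plakoglobin (Jup, also called gamma-catenin), beta-catenin (Ctnnb1), alpha-catenin (Ctnna1), p120-catenin (Ctnnd1) and the classical cadherins E-cadherin (Cdh1), N-cadherin (Cdh2) and P-cadherin (Cdh3). They were chosen by name, as 7 of the 12588 genes of the bulk table and of the 21938 to 23153 gene columns of the single-cell tables, and all 7 were present in every table. The study asks how mouse embryonic stem (ES) cells in soft agarose microgels differ from cells on tissue-culture plastic, and what plakoglobin does there. The bulk part comprised 3 gel and 3 plastic libraries of the Rex1GFPd2 line, labelled wild type, in 2i/LIF medium, which holds inhibitors of MEK and GSK3 beside the cytokine LIF. They were made with Smart-seq2, a method that reads whole transcripts, from 1000 cells each. The single-cell part comprised 5 inDrop libraries with 1 per condition. Of these, 3 held E14 wild-type cells, 1 grown on plastic with serum/LIF (called the serum reference), 1 in microgel with serum/LIF and 1 on plastic with 2i/LIF. The other 2 held cells in serum/LIF on plastic that carry plakoglobin under the constitutive CAG promoter and are labelled as high and low overexpressors. They are called the libraries labelled JupHigh and JupLow. The labels name neither the parent line of these cells nor whether each is 1 clone. LIF was present in every culture.

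Classical cadherins join neighbouring cells through their outer domains. Their cytoplasmic tails bind either beta-catenin or plakoglobin at a shared site, alpha-catenin links the complex to actin, and p120-catenin holds cadherins at the membrane. Beta-catenin is also the effector of WNT signalling: the destruction complex of APC, axin and GSK3 marks the free protein for breakdown, and a GSK3 inhibitor spares it. Plakoglobin is its closest paralogue and is shared with desmosomes. E-cadherin is the main cadherin of ES cells and is needed for their compact colonies.

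The 250 bases upstream of a RefSeq start of Jup, Ctnnb1 and Ctnnd1 are shown because Jup and Ctnnd1 were the members called higher in gel while Ctnnb1, the paralogue of Jup, was not called. RefSeq promoter entries were matched for 3 of the 7 members (build GRCm38.p6). Ctnnb1 and Ctnnd1 each have 2 entries, of which 1 is shown and searched. Their starts are not those of the GENCODE gene models given with each gene. The Ctnnb1 window lies inside its gene model, and the Ctnnd1 window overlaps the upstream end of its own. Capitals mark CACCC, the core that KLF factors bind, on either strand (GGGTG where it lies on the other strand).
Jup, chr11:100397791-100398040, minus strand: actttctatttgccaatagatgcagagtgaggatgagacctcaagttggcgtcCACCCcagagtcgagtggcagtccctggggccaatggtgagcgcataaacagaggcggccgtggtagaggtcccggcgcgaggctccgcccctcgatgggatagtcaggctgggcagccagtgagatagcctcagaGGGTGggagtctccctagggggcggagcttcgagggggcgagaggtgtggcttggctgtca
Ctnnb1, chr9:120933150-120933399, plus strand: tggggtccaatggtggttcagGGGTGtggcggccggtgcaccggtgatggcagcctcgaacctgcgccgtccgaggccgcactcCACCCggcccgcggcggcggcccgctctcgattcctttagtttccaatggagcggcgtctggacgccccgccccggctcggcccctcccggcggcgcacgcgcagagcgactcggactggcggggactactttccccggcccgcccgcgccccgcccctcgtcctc
Ctnnd1, chr2:84650741-84650990, minus strand: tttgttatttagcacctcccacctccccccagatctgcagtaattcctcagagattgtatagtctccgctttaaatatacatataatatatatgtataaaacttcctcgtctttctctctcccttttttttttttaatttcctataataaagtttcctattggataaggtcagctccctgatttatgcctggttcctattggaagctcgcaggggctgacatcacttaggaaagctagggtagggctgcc
Jup and Ctnnb1 each held 2 matches to CACCC and Ctnnd1 held 0, where 52.0% of 32851 promoter windows of this length held at least 1. The TCF and LEF core CTTTG and the Snail and Zeb core CACCTG were searched on both strands as well and had 0 matches in all 3 windows, against 48.6% and 17.2% of all windows. GC content was 62.0% for Jup, 74.8% for Ctnnb1 and 40.0% for Ctnnd1, with a median of 52.4% over all windows. No assay of binding or accessibility was part of the series, so these matches describe the letters only.

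The bulk libraries held 637235 to 2583256 recovered reads, and plastic included both the deepest and the shallowest. The single-cell libraries held 112 to 2889 cells of at least 1000 unique molecular identifiers (UMIs), and the median cell held 1731.5 to 2465 UMIs. No whole barcode was shared between single-cell libraries. All 10 ES cell markers had UMIs in 4 libraries and 9 of 10 in the serum reference, where Sox2 was at 0, and their summed level was 2224 to 4237 CPM (UMIs scaled to a library total of 1000000). Primitive endoderm markers summed to 2306 CPM in the serum reference and to 264 to 626 CPM elsewhere. Fibroblast markers summed to 3.86 to 40.6 CPM, with Lum at 0 in every library. In bulk no fibroblast marker was in the table. The gel single-cell table used here covers 58 first barcode blocks where the others cover 384 or 385, and its last row was incomplete and left out, so its 112 cells come from part of the barcodes.

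In the bulk libraries plakoglobin rose in gel, p120-catenin rose from a low level, alpha-catenin fell modestly, and neither beta-catenin nor E-cadherin passed the test. N-cadherin and P-cadherin were too low to be tested. Jup (chromosome 11, 100368958 to 100397763, GRCm38 with GENCODE M21) had deposited values, which are reads scaled by 1 factor per library, of 102.7, 90.9 and 96.2 in gel and of 9.56, 9.39 and 30.4 in plastic. Every gel library lay far above every plastic library, and the third plastic library, the shallowest, lay about midway between the other plastic libraries and the gel libraries on the log scale. The values rest on 91, 74 and 70 reads in gel and on 23, 24 and 20 in plastic. The change was 2.74 on the log2 scale (SE 0.31, Benjamini-Hochberg adjusted p 5.94e-06 in limma, 0.00510 in limma without trend). Leaving out 1 library at a time gave 2.46 to 3.28, the highest without the third plastic library. Of the 7 members 5 passed the filter on low values and 3 of these were called, where 36.9% of all 7878 tested genes were called. The log2 fold changes rose with the GC content of transcripts across genes (Spearman's rho 0.30 over 7688 genes), and Jup lies in the tenth of genes richest in GC, whose median was 0.37. With that trend removed in each library, an alternative chosen after seeing the data, the fold change of Jup was 2.33 (adjusted p 3.80e-05 in limma). Among pluripotency markers, of 10 tested ES cell markers 6 rose and 2 fell in gel (median 0.92), and of 11 naive markers 6 rose and 3 fell (median 0.54), with Klf2 at 2.08, Klf4 at 1.84 and Esrrb at 1.55 (adjusted p 9.41e-07, 1.72e-06 and 4.88e-07 in limma) and Dppa3 at -0.68, Nanog at -0.34 and Zfp42 at -0.32 (adjusted p 0.00143, 0.00740 and 0.0124 in limma), genes named after their values were seen. Both lists hold Esrrb, Klf4, Nanog and Zfp42, so their counts are not separate. Their part in the change of Jup was not tested. In bulk libraries a change in the share of cells that express a gene and a change in RNA per cell cannot be told apart.

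**Figure D1:**
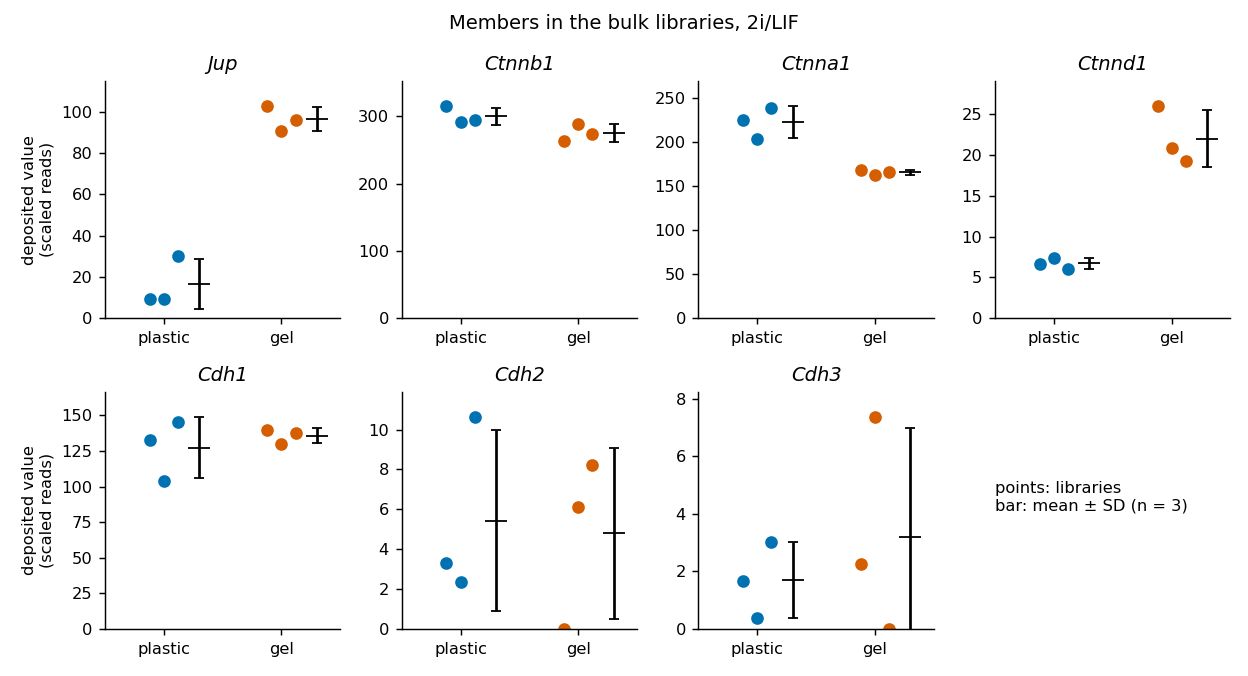
Deposited values (scaled reads) of the 7 members in 3 plastic and 3 gel bulk libraries in 2i/LIF; points are libraries and bars the mean ± SD (n = 3). Jup is at 90.9 to 102.7 in gel and 9.39 to 30.4 in plastic, while the Cdh1 values overlap.

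Beta-catenin (Ctnnb1, chromosome 9, 120929216 to 120960507) had values of 263, 289 and 273 in gel and 315, 291 and 295 in plastic. The gel values all lay just below the plastic values, and the log2 change, -0.13 with an SE of 0.10, did not pass the test (adjusted p 0.362 in limma). The balance of both paralogues was taken within each library, per kilobase of exon so that the genes can be compared. The log2 of Jup over Ctnnb1 was -1.66, -1.97 and -1.81 in gel and -5.28, -5.19 and -3.57 in plastic. Plakoglobin thus stood at 0.284 of the level of beta-catenin in gel and at 0.0390 in plastic (geometric means). The groups did not overlap, averaging -1.82 ± 0.155 in gel and -4.68 ± 0.964 in plastic (SD, n = 3), which differ by 2.86. An exact permutation test gave p = 0.1, which is the smallest value 3 against 3 libraries allow, and 0.3 after adjustment over 3 balances. Beta-catenin remained the more abundant paralogue in every library. Summed per kilobase, plakoglobin added 15.0 ± 0.921 to 53.0 ± 2.48 for beta-catenin in gel and 2.55 ± 1.87 to 57.8 ± 2.44 in plastic (SD, n = 3).

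**Figure D2:**
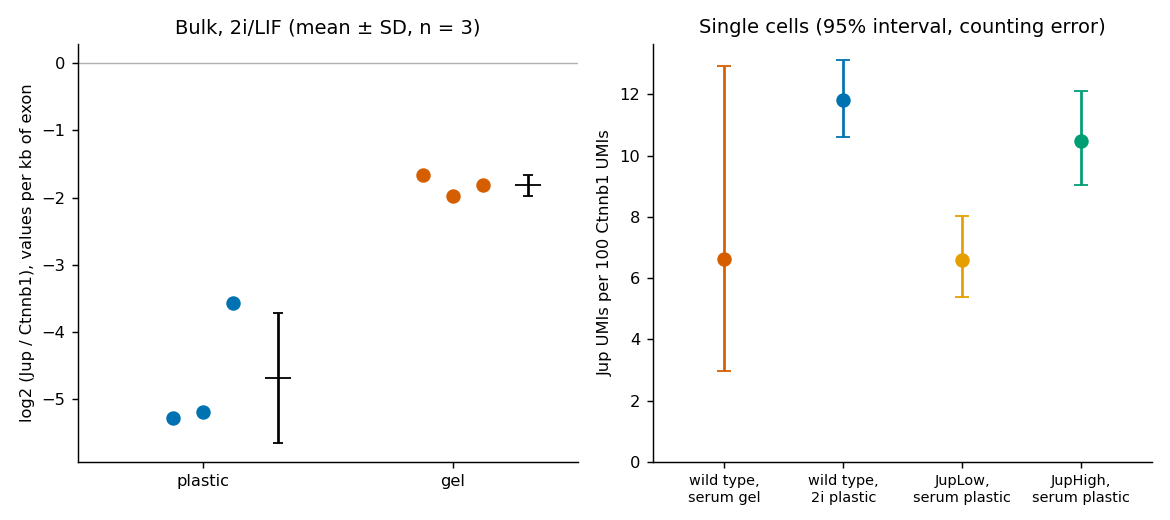
Balance of Jup and Ctnnb1. On the left, the log2 ratio of values per kilobase of exon in each bulk library with the mean ± SD (n = 3), at -1.97 to -1.66 in gel and -5.28 to -3.57 in plastic; on the right, Jup UMIs per 100 Ctnnb1 UMIs in the 4 single-cell tables other than the serum reference, with 95% intervals for counting error, from 6.60 in the library labelled JupLow to 11.8 in 2i/LIF.

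Alpha-catenin (Ctnna1, chromosome 18, 35118859 to 35254779) had values of 168, 162 and 166 in gel and 225, 203 and 238 in plastic. The groups were apart, and the log2 change was -0.42 with an SE of 0.12 (adjusted p 0.00827 in limma). p120-catenin (Ctnnd1, chromosome 2, 84600071 to 84650765) had values of 26.0, 20.9 and 19.2 in gel and 6.65, 7.43 and 6.07 in plastic. These rest on 14 to 23 reads per gel library and 4 to 19 per plastic library. The groups were apart, with a log2 change of 1.63 and an SE of 0.33 (adjusted p 0.000857 in limma). With all libraries thinned to the depth of the shallowest it was 2.88 (adjusted p 0.00279). Ctnnd1 shares 61.2% of its exon bases with Gm28635, a gene model on the same strand, so how reads fell to either gene is not known. Divided by all its exon bases, shared ones included, it stood at 3.01 ± 0.479 in gel and 0.918 ± 0.0935 in plastic (SD, n = 3). These were the lowest values per kilobase of the 4 catenins. If reads of shared bases were not counted they are too low, so its rank among the catenins is uncertain.

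E-cadherin (Cdh1, chromosome 8, 106603351 to 106670246) had values of 140, 130 and 137 in gel and 133, 104 and 146 in plastic. The groups overlapped, and the log2 change, 0.11 with an SE of 0.14 (adjusted p 0.580 in limma), turned to -0.034 without plastic replicate 2. N-cadherin (Cdh2, chromosome 18, 16588877 to 16809246), the cadherin of mesoderm and neural tissue, had values of 0, 6.14 and 8.24 in gel and 3.32, 2.35 and 10.6 in plastic from 32 reads in all. P-cadherin (Cdh3, chromosome 8, 106510891 to 106557297), a close neighbour and relative of Cdh1, had values of 2.26, 7.37 and 0 in gel and 1.66, 0.391 and 3.04 in plastic from 15 reads in all. For both genes the groups overlapped widely. Per kilobase Cdh1 stood at 29.7 ± 1.11 in gel and 27.8 ± 4.70 in plastic, against 0.594 ± 0.531 and 0.674 ± 0.561 for Cdh2 and 0.732 ± 0.861 and 0.387 ± 0.302 for Cdh3 (SD, n = 3). E-cadherin was therefore the leading classical cadherin by a wide margin on both substrates. The log2 balances of Cdh2 and of Cdh3 over Cdh1 differed between gel and plastic by -0.79 and 0.12, less than the spread between libraries (exact permutation p = 0.8 and 0.9, both 0.9 after adjustment over 3 balances).

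The partner genes of beta-catenin breakdown moved in both directions, and the called partners of the junction rose. Over all 7878 tested genes 1438 rose and 1468 fell, 36.9% together. Of the 11 tested adherens junction partners 4 rose and 0 fell in gel, a share near that of all genes, with a median log2 fold change of 0.49 against -0.022 over all tested genes. The crosslinker of actin Actn1 (alpha-actinin) had a log2 fold change of 2.38, the actin regulator Vasp 1.32 and the adhesion receptor Nectin3 1.02 (adjusted p 2.37e-05, 0.00250 and 0.0374 in limma). Of 7 tested genes of the destruction complex 2 rose and 2 fell, with a median of 0.019. The scaffold Axin1 rose by 1.71 (adjusted p 0.000623), while the kinase Gsk3b, a target of one of the 2i inhibitors, fell by 1.33 on the log2 scale (adjusted p 1.79e-06) and the ubiquitin ligase subunit Btrc fell by 0.96 (adjusted p 0.000784, all in limma). Of 5 tested TCF factors and coactivators 3 rose and 1 fell, with a median of 1.38: Tcf7l1, the main TCF repressor of ES cells, had 1.60, Pygo2 1.42 and Tcf7 1.38 (adjusted p 0.00128, 0.00103 and 0.00103 in limma). Of 7 tested genes of cadherin trafficking and shedding 1 rose and 1 fell, with a median of -0.34: the E-cadherin ubiquitin ligase Cbll1 (Hakai) had 1.26 and the endosomal GTPase Rab5a -0.69 (adjusted p 0.00865 and 0.00204 in limma). None of the 3 tested other catenins and plakophilins passed, with a median of -0.078. Epcam, the 1 tested gene among E-cadherin regulators and epithelial factors, had -0.71 (adjusted p 0.0842), and 0 of the 12 other cadherins were tested.

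**Figure D3:**
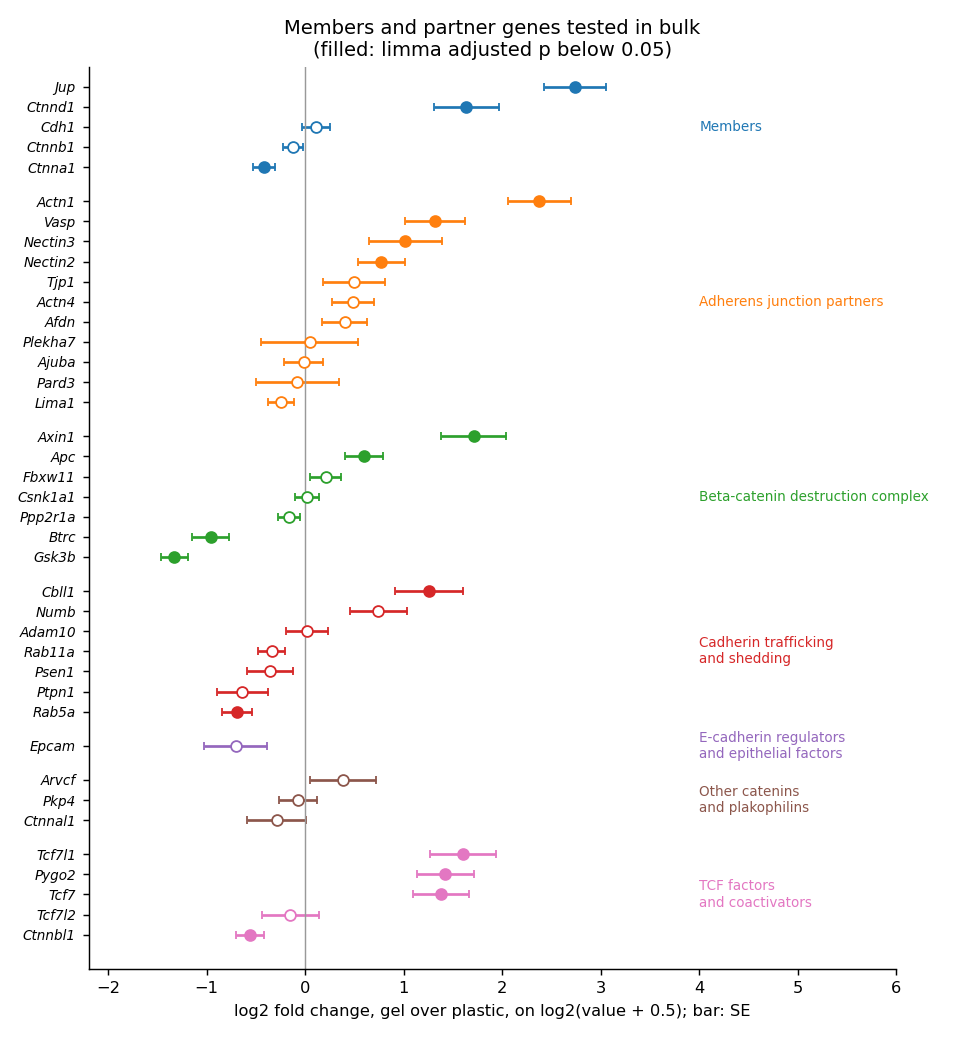
Log2 fold changes of gel over plastic with SE for the members and partner genes tested in bulk, by list, on the log2(value + 0.5) scale; filled points passed limma at an adjusted p of 0.05. Jup at 2.74 and Actn1 at 2.38 lie farthest to the right and Gsk3b at -1.33 farthest to the left.

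Among the 6238 tested genes with a mean value of at least 20, those whose values followed Jup most closely over the 6 bulk libraries were Slc7a5, a subunit of an amino acid transporter (Pearson's r 0.999), Specc1l (0.998) and Prr3 (0.993). The points share their libraries, and the gel and plastic libraries stand apart, so any gene that differs between them tends to such values. Slc7a5 averaged 36.2 in gel and 6.33 in plastic, near the ratio of Jup, while Specc1l had 26.0 and 19.2 and Prr3 29.6 and 20.4.

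The single-cell levels are given as CPM with exact Poisson intervals at 95%, which cover counting error only. With 1 library per condition no difference has a replicate check, and no test was made. In inDrop 1 UMI stands for 1 captured transcript end, so UMI counts of different genes are compared without division by length. The table of the serum reference differed from the other 4, most often in genes that overlap other genes; how it was counted is not given in the sources used here, and the cause was not tested. In the 4 pairs with that table, 12.6% to 15.3% of genes with an exon overlap differed 8-fold or more, against 5.12% to 7.81% of other genes. Between other tables the shares were 0.336% to 2.63% and 0.603% to 2.74%. Ctnnb1 shares 15.1% of its exon bases with other genes, and its annotated 3' end with Ulk4 on the opposite strand. It had 19 UMIs (9.42 CPM) in that table, against 395 to 576 CPM in the others, while Gm28635 had 904 UMIs there and 0 to 5 elsewhere. Ratios of Ctnnb1, and to a lesser degree Ctnnd1, against that table are therefore not read as differences between cells. Jup, Cdh1, Cdh2 and Cdh3 overlap no exon of another gene, and Ctnna1 overlaps in 95 bases. Genes without an overlap also differed 8-fold more often in pairs with the serum reference than in other pairs, so ratios of these members against it may carry some of the same difference.

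Plakoglobin lay within a narrow range of levels in the single-cell libraries. Jup had 36.7 CPM in the serum reference (28.8 to 46.0) and 38.1 in gel (17.4 to 72.3, from 9 UMIs). It had 46.7 in 2i/LIF (42.2 to 51.6), 37.9 in JupLow (31.1 to 45.7) and 47.8 in JupHigh (41.5 to 54.8). In order of level, neighbouring libraries did not differ beyond their intervals. The log2 ratio of 2i/LIF over the serum reference was 0.35 (-0.013 to 0.73), with an interval above 0 in 3 of 8 settings. It was highest, at 0.60 (0.24 to 0.98), under TMM scaling (trimmed mean of M-values, which sets the middle of the genes equal). The ratio of JupHigh over the serum reference was 0.38 (-0.0079 to 0.79), with an interval above 0 in 4 of 8 settings, at 0.69 (0.30 to 1.09) under TMM scaling and 0.61 (0.33 to 0.89) with every deposited barcode. That of JupLow was 0.046 (-0.39 to 0.49), above 0 in 1 of 8 settings, at 0.37 (0.091 to 0.65) with every deposited barcode. The labels do not give the 3' end of the transgene, and transcripts that end outside the annotated gene would not be counted as Jup. Barcodes under 500 UMIs, which can hold free RNA, carried Jup at 28.6 CPM in the serum reference, 27.4 in gel, 49.5 in JupLow and 57.0 in JupHigh. Gel over plastic in serum/LIF gave a log2 ratio of 0.055 (-1.13 to 1.06), an interval that lies below the change of 2.74 measured in bulk, where medium, line and assay differ.

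**Figure D4:**
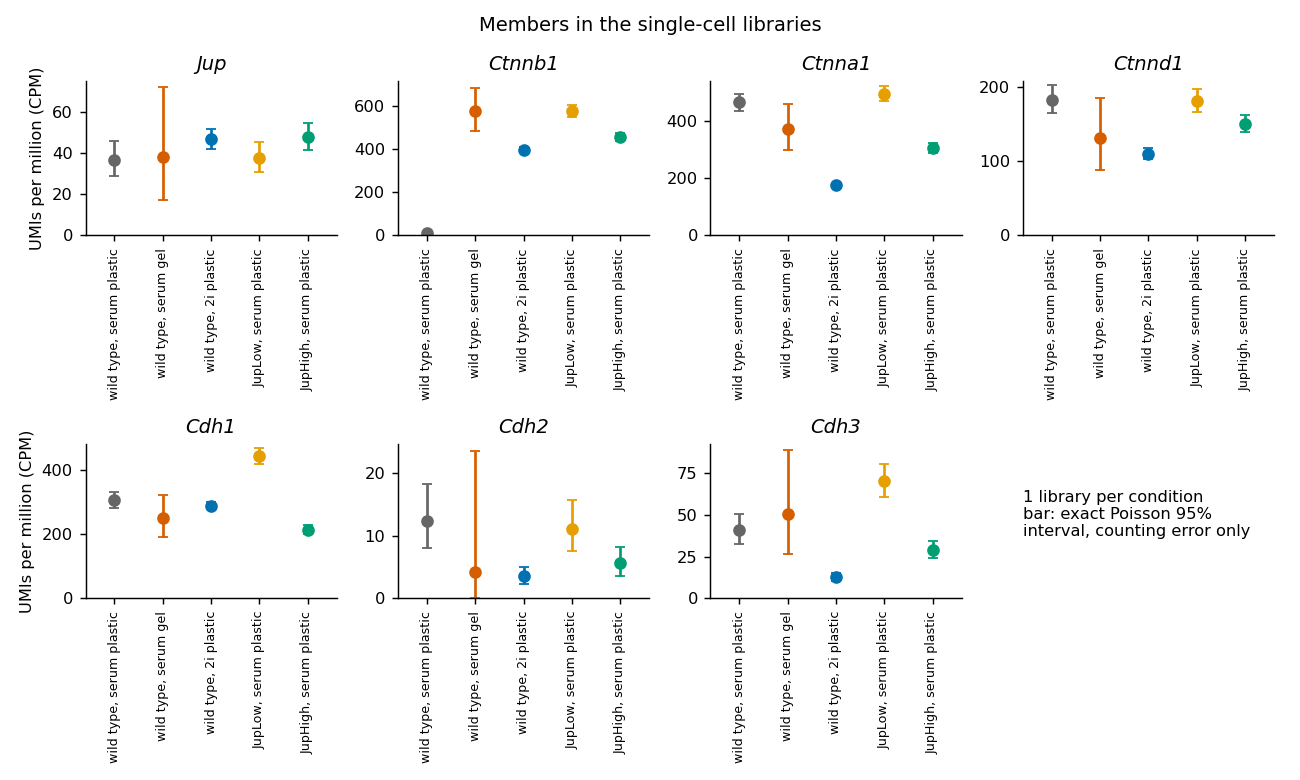
Levels of the 7 members in CPM in the 5 single-cell libraries with exact Poisson 95% intervals for counting error. Jup lies between 36.7 and 47.8 in every library, Cdh3 is lowest in 2i/LIF at 12.7, and the near absence of Ctnnb1 in the serum reference is in the table that stands apart from the other 4 in genes that overlap others.

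The balance of Jup and Ctnnb1 was lower in JupLow than in JupHigh and in 2i/LIF, while the interval of gel overlapped those of the other 3, and no pair of these libraries differs by medium alone. In the 4 tables other than the serum reference Ctnnb1 stood at 576 CPM in gel (483 to 681), 395 in 2i/LIF (382 to 409), 574 in JupLow (547 to 602) and 456 in JupHigh (436 to 476). There were 6.62 Jup UMIs per 100 Ctnnb1 UMIs in gel (2.96 to 12.9), 11.8 in 2i/LIF (10.6 to 13.1), 6.60 in JupLow (5.38 to 8.01) and 10.5 in JupHigh (9.04 to 12.1). The balance of JupHigh lay above that of JupLow by 0.67 on the log2 scale (0.31 to 1.03), made up of a log2 ratio of 0.34 for Jup (-0.0062 to 0.68) and of -0.33 for Ctnnb1 (-0.43 to -0.24). The interval of the Jup ratio alone included 0 here and was above 0 in 3 of 8 settings. TMM scaling gave the highest ratio for Jup, 0.55 (0.21 to 0.90), and -0.12 for Ctnnb1 (-0.22 to -0.026). With every deposited barcode the ratio of Ctnnb1 was -0.035 (-0.11 to 0.041) and the balance differed by 0.28 (0.022 to 0.53), and with cells thinned to 1000 UMIs by 0.38 (-0.16 to 0.94). The balance of wild type in 2i/LIF lay above JupLow by 0.84 (0.52 to 1.17; 0.34 with every deposited barcode) and differed from JupHigh by 0.17 (-0.089 to 0.44), both pairs being chosen after seeing the data. These 3 differences share libraries.

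Alpha-catenin was lowest in 2i/LIF, and p120-catenin was lower there than in JupLow and JupHigh. Ctnna1 had 464 CPM in the serum reference (435 to 495), 373 in gel (299 to 459), 494 in JupLow (469 to 520), 305 in JupHigh (289 to 322) and 175 in 2i/LIF (166 to 184). The log2 ratio of 2i/LIF over the serum reference was -1.41 (-1.53 to -1.29), and -1.16 under TMM scaling, which moves all ratios of this pair by 0.25. Ctnna1, Cdh3 and, with the caveat above, Ctnnb1 differed 2-fold or more in this pair. Cdh3 reached 20 CPM only in the serum reference and Ctnnb1 only in 2i/LIF, so no count of members is given. The share of all genes past 2-fold was 26.9%, which includes genes below 20 CPM in the lower library. Between JupHigh and JupLow Ctnna1 stood at -0.69 (-0.80 to -0.59). Ctnnd1 had 183 CPM in the serum reference (165 to 203), 131 in gel (89.2 to 186, from 31 UMIs), 111 in 2i/LIF (104 to 118), 182 in JupLow (166 to 198) and 151 in JupHigh (139 to 163). The gel interval holds the level of 2i/LIF. Against JupHigh and JupLow, 2i/LIF stood at -0.44 (-0.59 to -0.30) and -0.72 (-0.87 to -0.56) for Ctnnd1, and the first became -0.68 with every deposited barcode. The ratio of E-cadherin to its actin link was highest in 2i/LIF: there were 165 Cdh1 UMIs per 100 Ctnna1 UMIs in 2i/LIF (154 to 176) and 65.9 to 89.6 in the 4 serum/LIF libraries.

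E-cadherin was the leading cadherin in every single-cell library, and P-cadherin was lowest in 2i/LIF. Cdh1 had 306 CPM in the serum reference (282 to 331), 250 in gel (190 to 322), 288 in 2i/LIF (277 to 300), 443 in JupLow (419 to 468) and 214 in JupHigh (200 to 228). The log2 ratio of 2i/LIF over the serum reference was -0.086 (-0.21 to 0.044). Its interval lay below 0 in 4 of 8 settings and above 0 in 1, at 0.17 (0.039 to 0.30) under TMM scaling, so the sign depends on the processing. Cdh3 had 40.6 CPM in the serum reference (32.3 to 50.4), 50.8 in gel (26.3 to 88.7), 70.2 in JupLow (60.8 to 80.6), 28.8 in JupHigh (23.9 to 34.3) and 12.7 in 2i/LIF (10.4 to 15.3). Its level in 2i/LIF lay below the interval of each of the 4 serum/LIF libraries. Cdh2 stood at 12.4 CPM in the serum reference (8.02 to 18.3), 11.1 in JupLow (7.60 to 15.7), 5.57 in JupHigh (3.57 to 8.28) and 3.50 in 2i/LIF (2.34 to 5.03), and rested on 1 UMI in gel. Of the summed UMIs of the 3 cadherins, Cdh1 held 94.7% in 2i/LIF (93.7% to 95.5%, exact binomial interval) and 81.9% to 86.2% in the serum/LIF libraries. Cdh3 held 4.17% in 2i/LIF (3.42% to 5.02%) and 11.3% to 16.7% in serum/LIF, and Cdh2 held 1.15% and 1.39% to 3.45%. The log2 balance of Cdh3 over Cdh1 in 2i/LIF differed from the serum reference by -1.59 (-2.05 to -1.14), from JupHigh by -1.61 (-2.02 to -1.21) and from JupLow by -1.85 (-2.22 to -1.49). These comparisons share the 2i/LIF library. The balance of Cdh2 over Cdh1 differed in the same pairs by -1.74 (-2.57 to -0.89), -1.10 (-1.94 to -0.25) and -1.05 (-1.83 to -0.27). With cells thinned to 1000 UMIs all 3 intervals included 0, at -1.23 (-2.79 to 0.42), -0.62 (-2.05 to 0.82) and -0.15 (-1.66 to 1.40).

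**Figure D5:**
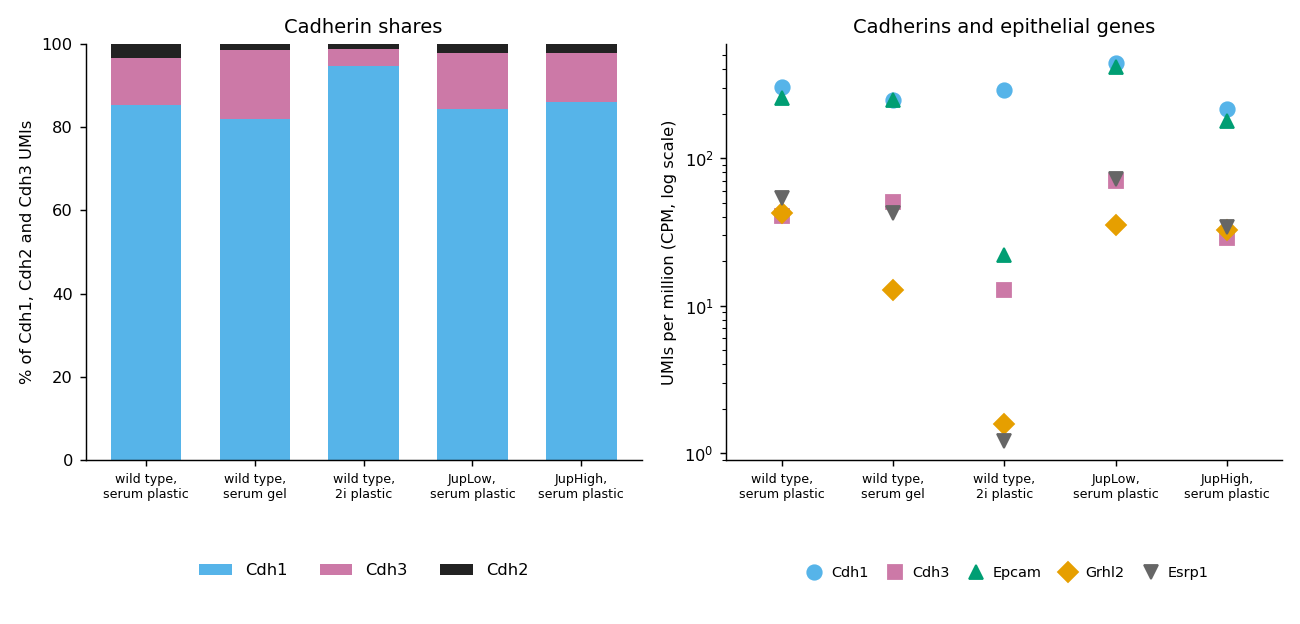
On the left, the share of Cdh1, Cdh3 and Cdh2 in their summed UMIs in each single-cell library, with Cdh1 at 94.7% in 2i/LIF and 81.9% to 86.2% in the serum/LIF libraries; on the right, levels in CPM on a log axis, where Epcam, Grhl2, Esrp1 and Cdh3 are lowest in 2i/LIF while Cdh1 is not.

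In the microgel library in serum/LIF the intervals were too wide to show whether the cadherin choice differed from that on plastic. The log2 ratio of gel over plastic was -0.29 for Cdh1 (-0.70 to 0.10), 0.32 for Cdh3 (-0.69 to 1.20) and -0.32 for Ctnna1 (-0.65 to 0.00036). The members at 20 CPM or more in both libraries of this pair stayed below 2-fold. The share of all genes past 2-fold was 23.3%. It includes genes below 20 CPM in the lower library, so it is not a like comparison for these members. Ctnnb1 was past 2-fold, with the caveat above, and reached 20 CPM only in gel. The log2 balance of Cdh3 over Cdh1 differed by 0.61 (-0.48 to 1.60). That of Cdh2 over Cdh1 differed by -1.26 (-6.64 to 1.41), with 1 Cdh2 UMI in gel. The interval of Ctnna1 lay below 0 in 4 of 8 settings, such as TMM scaling (-0.35, -0.69 to -0.038) and every deposited barcode (-0.42, -0.63 to -0.22). That of Cdh1 did so in 2 of 8, at -0.27 (-0.52 to -0.036) with every deposited barcode.

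Between the libraries labelled JupHigh and JupLow, Cdh1 and Cdh3 were lower in JupHigh, and Cdh2 in part of the settings. The log2 ratio was -1.05 for Cdh1 (-1.17 to -0.93), -1.29 for Cdh3 (-1.62 to -0.96) and -0.998 for Cdh2 (-1.82 to -0.19), while the balances of Cdh3 and Cdh2 over Cdh1 differed by -0.24 (-0.60 to 0.12) and 0.051 (-0.79 to 0.87). Cdh1 and Cdh3 were the 2 of 6 members at 20 CPM or more past 2-fold. The share of all genes was 11.1%, which includes genes below 20 CPM in the lower library. TMM scaling moves the ratios of this pair by 0.21 and gave -0.84 for Cdh1, -1.07 for Cdh3 and -0.79 for Cdh2, whose interval then included 0 (-1.61 to 0.023). It also did so from 2000 UMIs (-0.90, -1.87 to 0.024) and with thinned cells (-0.52, -2.01 to 1.02), and lay below 0 in 5 of 8 settings. With every deposited barcode the ratios were -0.69 for Cdh1 and -0.59 for Cdh3. Against the serum reference, Cdh1 lay at 0.53 in JupLow (0.39 to 0.67) and -0.52 in JupHigh (-0.66 to -0.37), and Cdh3 at 0.79 (0.41 to 1.18) and -0.50 (-0.91 to -0.078). The interval of the Cdh3 ratio of JupHigh included 0 in 4 of 8 settings, namely under TMM scaling (-0.19, -0.60 to 0.23), from 500 UMIs (-0.26, -0.64 to 0.12), from 2000 UMIs (-0.48, -0.98 to 0.022) and with every deposited barcode (-0.12, -0.45 to 0.22). That of JupLow did so with thinned cells (0.46, -0.12 to 1.07). With every deposited barcode Cdh1 in JupLow was 0.10 (0.0053 to 0.20). The members at 20 CPM or more in both libraries of these pairs stayed below 2-fold. The shares of all genes past 2-fold were 13.7% in JupLow and 22.9% in JupHigh. They include genes below 20 CPM in the lower library, so they are not a like comparison for these members. Ctnnb1 was past 2-fold, with the caveat above, and did not reach 20 CPM in the serum reference. Naive pluripotency markers summed to 2809 CPM in JupHigh and 2655 in 2i/LIF, against 674 to 881 CPM in the other libraries, and formative and primed markers to 485 and 243 against 942 to 1095. The part of this difference in the cadherin levels was not tested. Against wild type in 2i/LIF, Cdh3 differed 2-fold or more in JupHigh and in JupLow, and Ctnna1 did so in JupLow. Of all genes 10.1% did in JupHigh and 19.7% in JupLow. Cdh3 did not reach 20 CPM in 2i/LIF, so no count of members is given.

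Of the 12 E-cadherin regulators and epithelial factors 3 reached 20 CPM in the serum reference or in 2i/LIF, where Esrp1 and Grhl2 did so only through the serum reference, so no count or median over them is given. Epcam, an adhesion molecule of epithelia, had 258 CPM in the serum reference, 250 in gel, 417 in JupLow, 179 in JupHigh and 22.2 in 2i/LIF. The epithelial splicing factor Esrp1 had 53.5, 42.3, 72.3, 33.9 and 1.21 CPM in the same order, and the epithelial transcription factor Grhl2, named after its values were seen, had 42.6, 12.7, 35.1, 32.7 and 1.57. All 3 were lowest in 2i/LIF, where Cdh1 at 288 CPM lay within its range of 214 to 443 CPM over the serum/LIF libraries. Some adherens junction partners, among them Zyx and Vcl, reached 20 CPM only in the higher of 2i/LIF and the serum reference. No count over that list is therefore given. Of all genes 26.9% were past 2-fold in either direction in this pair. The LIM proteins Zyx and Ajuba had 0.966 and 40.6 CPM in 2i/LIF against 63.4 and 131 in the serum reference, 93.1 and 144 in gel, 55.2 and 146 in JupLow and 10.4 and 90.9 in JupHigh. Vcl (vinculin), which binds alpha-catenin under tension, had 54.0 CPM in 2i/LIF against 18.8 in the serum reference, but 131 in gel, 183 in JupLow and 60.8 in JupHigh. Vcl, Zyx, Esrp1, Grhl2 and Axin2 overlap other genes, so their values in the serum reference are uncertain. Axin2, a WNT target as well as a scaffold of the destruction complex, had 74.7 CPM in 2i/LIF, 34.1 in JupHigh, 12.5 in JupLow and 5.45 in the serum reference, with 0 UMIs in gel. Between 2i/LIF and the serum reference it reached 20 CPM only in 2i/LIF, so no count over its list is given.

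Between JupHigh and JupLow the adherens junction partners with the largest differences were lower in JupHigh. Lima1, named after its values were seen, was higher there, with a log2 ratio of 1.09 (0.76 to 1.42). Some partners, such as Zyx, reached 20 CPM only in JupLow, so no count or median over the list is given. Of all 6953 genes compared 183 were 2-fold or more higher in JupHigh and 587 lower, 11.1% together. Zyx stood at -2.40 (-2.91 to -1.92), Actn1 at -1.67 (-1.82 to -1.52) and Vcl at -1.59 (-1.81 to -1.37). Among the epithelial factors Epcam had a log2 ratio of -1.22 (-1.35 to -1.09) and Esrp1 one of -1.09 (-1.41 to -0.78). The desmosomal plakophilin Pkp2, which binds plakoglobin, was the 1 of 3 other catenins and plakophilins past 2-fold, at 89.3 CPM in JupLow and 23.0 in JupHigh. Among the TCF factors and coactivators Tcf7l2 stood at -1.78 (-2.18 to -1.40). With 18.6 CPM in JupHigh and 63.9 in JupLow it reached 20 CPM only in JupLow, so no count over that list is given. Of 8 trafficking genes 1 was 2-fold or more lower, Rab11a at -1.28 (-1.60 to -0.97). Axin2 was higher in JupHigh, at 34.1 CPM against 12.5 in JupLow. It reached 20 CPM only in JupHigh, so no count over the destruction complex genes is given. Actn1, which like Jup rose in the bulk gel libraries, was lower in JupHigh than in JupLow here, in another medium, line and assay. A link between Actn1 and Jup was not tested.

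Single cells were thinned to 1000 UMIs each to compare how many held a member. A Cdh1 UMI was found in 23.3% of cells in the serum reference (20.3% to 26.6%, exact binomial interval), 23.2% in gel (15.8% to 32.1%), 21.3% in 2i/LIF (19.8% to 22.8%), 33.2% in JupLow (30.5% to 35.9%) and 19.1% in JupHigh (17.4% to 20.8%). Before thinning these shares were 43.9%, 35.7%, 47.3%, 55.5% and 33.5%. A Cdh3 UMI was found in 4.83%, 5.36%, 1.25%, 6.25% and 2.83% of cells in the same order after thinning, which follows the order of the CPM. A Jup UMI was found in 3.58% to 4.46% of cells, and a Cdh2 UMI in 0.346% to 0.966% outside gel and in 0 of 112 gel cells, which allows a share of up to 2.68% at this thinned depth by 3 counts (3.24% by the exact binomial interval). Before thinning 1 gel cell held a Cdh2 UMI (0.893%). No cell type lacking these genes was at hand as a background. Barcodes under 500 UMIs carried Cdh1 at 282 CPM in the serum reference, 247 in gel, 216 in JupLow and 117 in JupHigh, and Cdh3 at 5.48 to 21.7 CPM, and the part of free RNA in these shares was not tested.

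Cells with UMIs of 2 cadherins were few at this depth. Of 452 JupLow cells with any cadherin UMI, 370 held Cdh1 alone, 47 Cdh3 alone, 6 Cdh2 alone, 27 Cdh1 with Cdh3, 1 Cdh1 with Cdh2 and 1 Cdh2 with Cdh3. In 2i/LIF 602 of 648 such cells held Cdh1 alone, 26 Cdh3 alone and 10 both. A Cdh1 UMI was found in 36.0% of JupLow cells with a Cdh3 UMI and 33.0% of the others, in 16.4% and 19.2% in JupHigh, in 27.8% and 21.2% in 2i/LIF and in 25.7% and 23.2% in the serum reference. Likewise Ctnnb1 was found in 43.5% of JupHigh cells with a Jup UMI and 35.9% of those without, in 41.9% and 37.5% in JupLow and in 33.3% and 30.1% in 2i/LIF. These are descriptions of cells from 1 library each.

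Cells with a cadherin UMI were also compared for marker genes, as a description. In the serum reference, primitive endoderm markers stood at 1.38 UMIs per thinned cell in the 169 cells with a Cdh1 UMI and 2.49 in the 556 without, and at 0.943 in the 35 cells with a Cdh3 UMI and 2.30 in the 690 without. For Cdh3 the values were 0.760 against 0.597 in JupLow, 0.230 against 0.333 in JupHigh, 0.250 against 0.263 in 2i/LIF, and in gel 3 UMIs in 6 cells against 0.660 per cell in the others. The 27 cells of the serum reference with a Jup UMI had 3.07 against 2.20. For Jup the values were 0.837 against 0.599 in JupLow, 0.302 against 0.261 in 2i/LIF, 0.315 against 0.330 in JupHigh and 0.200 against 0.673 in gel (5 cells with a Jup UMI). Fibroblast markers stood at 0.233 UMIs in the 43 JupLow cells with a Jup UMI (10 UMIs) and 0.0199 in the others (23 UMIs). For Jup they were 0.0741 against 0.0287 in the serum reference (2 UMIs) and 0.00794 against 0.00326 in 2i/LIF (1 UMI). In JupHigh the 92 cells with a Jup UMI held 0 and the 2061 others 15 UMIs, too few to compare, and in gel 5 cells held 0. For Cdh3 they were 0.0800 (6 UMIs) against 0.0240 in JupLow, and cells with a Cdh3 UMI held 0 in the other libraries. Primitive endoderm markers went the opposite way for Cdh1 in the other plastic libraries. They stood at 0.774 against 0.525 in JupLow, 0.404 against 0.312 in JupHigh and 0.315 against 0.248 in 2i/LIF. Cells with a Cdh2 UMI numbered 7 to 10 per plastic library. Their formative and primed markers summed to 1 to 6 UMIs per library, too few to set a level beside that of other cells. Naive markers for Cdh1 stood at 0.648 against 0.910 in JupLow and 2.69 against 2.78 in JupHigh. They stood at 2.76 against 2.40 in 2i/LIF and 0.740 against 0.691 in the serum reference. For Jup they were 3.02 against 2.45 in 2i/LIF, 3.23 against 2.74 in JupHigh and 1.05 against 0.815 in JupLow. In the serum reference they were 0.630 against 0.705. The part of the endoderm markers in the levels of the serum reference was not tested.

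Over the 5 libraries the genes at 100 CPM or more in the highest library whose log2(CPM + 1) followed a member most closely were listed as a description of 5 points. For Jup they were Tdh, a threonine dehydrogenase of ES cells (Pearson's r 0.997), the histone demethylase Kdm3a (0.993) and Gabpb2 (0.991). Tdh had 238 CPM in the serum reference, 296 in gel, 1087 in 2i/LIF, 328 in JupLow and 1141 in JupHigh, a far wider range than that of Jup. Tdh, Gabpb2, Cnn3, Atxn7l3b, Cryab and Purb overlap other genes, so their values in the serum reference, and with them their likeness, are uncertain. For Cdh1 they were Cnn3 (0.989), Atxn7l3b (0.986) and Rexo2 (0.976), for Cdh3 Hmox1 (0.9995), Enc1 (0.994) and Tpx2 (0.994), and for Cdh2 Cryab (0.998), Purb (0.995) and F3 (0.994). Those for Ctnnb1 (Oxsr1, Eno1b and Gm15452) were all at 0 in the serum reference, although none of the 3 overlaps an exon of another gene. The cause was not tested.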

How the data were processed

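Bulk values were deposited by the authors as a normalised signal, which was found to be whole read counts times 1 factor per library (within 1%), so reads were recovered. This was not the unit the design assumed. Single-cell tables were deposited by the authors as UMI counts per barcode. The submitters' processing notes name FastQC, STAR, featureCounts, DESeq2 and Scanpy and the builds mm10 and GRCm38. Strand use and annotation are not given in the sources used here.

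Bulk log2(value + 0.5) was fitted across all genes passing edgeR's filter (filterByExpr) with limma 3.58.1 (R 4.3.3), trend on, with a Benjamini-Hochberg threshold of 0.05. Alternatives were edgeR 4.0.16 and DESeq2 1.42.0 on the recovered reads, other pseudocounts, filters and scalings, thinning, a replicate block and leaving out each library. On data simulated for 7878 genes with the same dispersion for every gene and no GC trend, 97.5% of 200 genes changed 4-fold were recovered. Of the calls 6.25% were false. These rates hold for that simulation and may differ for the real libraries. The labels do not say whether replicates were separate cultures, so p-values measure the spread between these samples, which may be technical. For plastic replicate 2 title and description give different numbers and the title was followed.

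A barcode counted as a cell from 1000 UMIs, those with runs of G at both ends were dropped, no doublet caller was run, and unnamed columns, with 0.00509% to 0.499% of UMIs, stayed out. UMIs were summed per library, and genes reaching 20 CPM in either library of a pair were compared. Intervals are exact at 95% (Poisson, binomial, conditional odds ratio).

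Members, partner lists and markers were chosen with earlier results of these data known. Of each partner list at most 3 genes are named, those with the largest change (called in bulk, or at 50 CPM or more in single cells), and for likeness the 3 with the highest r.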

Additional observations from a re-analysis of the deposited data

Results flagged for a closer look

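For Ctnnb1 the single-cell libraries in serum/LIF gave a log2 ratio of gel over plastic of 5.93 and the bulk libraries in 2i/LIF a log2 fold change of -0.13, which did not pass the test (SE 0.10, adjusted p 0.362 by limma). The signs are opposite, and the difference was not tested. Assay, medium and line differ between these, and the plastic single-cell table stands apart from the other 4, so the first ratio is not read as a difference between cells. For Ctnnd1 the single-cell ratio was -0.48 (-1.06 to 0.048, an interval that includes 0, from 31 gel UMIs) and the bulk change 1.63. The estimates have opposite signs, and their difference was not tested, with the same differences in assay, medium, line and table.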

How the results depend on the processing

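In bulk, no recomputed fold change of a tested member changed its side of the threshold, and 1 of 84 changed sign: Cdh1, at -0.034 (adjusted p 0.891 by limma) without plastic replicate 2. Of the 31 recomputed balances 4 changed sign: Cdh2 over Cdh1 (-0.79) was 0.54 without gel replicate 1, and Cdh3 over Cdh1 (0.12) was -0.020 without gel replicate 1, -0.83 without gel replicate 2 and -0.29 without plastic replicate 2. The cause was not tested. Leaving out 1 library at a time gave 2361 to 2833 calls and log2 changes of 2.46 to 3.28 for Jup, -0.16 to -0.092 for Ctnnb1, -0.48 to -0.37 for Ctnna1, 1.51 to 1.72 for Ctnnd1 and -0.034 to 0.21 for Cdh1. The balances ranged from 2.56 to 3.42 (Jup over Ctnnb1), -1.54 to 0.54 (Cdh2 over Cdh1) and -0.83 to 1.20 (Cdh3 over Cdh1). With a minimum of 10 reads in every library Ctnnd1 gave no value. The replicate block gave 2.74 for Jup (adjusted p 2.71e-06 by limma); same-numbered libraries did not deviate together (correlations -0.052, 0.016 and 0.024), so the numbers do not pair them. In single cells, barcodes of at least 500 UMIs gave Cdh1 0.23 for JupLow over wild type and -0.79 for JupHigh over JupLow, and Cdh3 -0.87 for the latter. Every deposited barcode gave Cdh1 0.10 and -0.69, Cdh3 -0.59, a Jup over Ctnnb1 difference of 0.28 for JupHigh over JupLow and a Cdh3 over Cdh1 difference of 0.47 for JupHigh over wild type. TMM scaling gave Cdh1 0.17 for 2i/LIF over serum/LIF, -0.21 for JupHigh over wild type and -0.84 for JupHigh over JupLow. Cdh1 for 2i/LIF over serum/LIF was -0.25 with thinned cells and -0.23 with equal weight per cell. Ctnnd1 for JupHigh over wild type turned to 0.023 under TMM scaling and 0.0021 with thinned cells. The cause of these shifts was not tested. Depth limits the gel single-cell library most, with 9 Jup, 12 Cdh3 and 1 Cdh2 UMIs.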
